A study of Mus musculus with 15 samples.

Results

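The study's libraries of sorted liver cells were examined for chromatin accessibility at 9 mouse apolipoprotein genes: Apoa1, Apoa2, Apoa4, Apoa5, Apob, Apoc3, Apoe, Apoh and Apom. A region of the deposited matrix was assigned to a gene when its midpoint lay in the RefSeq gene body, or when that body was the nearest within 50 kb. By this rule 7 of the 9 genes held 24 of the 93217 regions, among 16625 protein-coding genes with at least 1 region. Apoe and Apom held none, since the regions next to them had their midpoints in or nearer to neighbouring genes.

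The data were 15 ATAC-seq libraries, in which a transposase cuts accessible DNA, from 5 groups of 3. Hepatocytes and biliary cells came from untreated mice. The other 3 groups, hepatocytes, cells labelled as reprogrammed hepatocytes, and biliary cells came from mice given 3,5-diethoxycarbonyl-1,4-dihydrocollidine (DDC), a compound fed to injure bile ducts and set off a ductular reaction. All cells were sorted from liver with no culture step. Strain, age, DDC dose and duration, sort markers and the criterion for a reprogrammed cell were not stated in the labels. Whether the 3 libraries of a group came from separate animals was not stated either, so p-values measure the spread between libraries, which may be technical.

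Apolipoproteins are the protein part of the particles that carry lipid in plasma, and hepatocytes are their main source. Apob encodes the scaffold of very-low-density and low-density particles. Apoa1 and Apoa2 encode the main proteins of high-density particles, while Apoa4, Apoa5 and Apoc3 encode proteins of triglyceride-rich particles; Apoc3 slows their clearance and Apoa5 speeds it. Apoe encodes the ligand by which remnants are taken up, Apoh encodes beta-2-glycoprotein I, and Apom encodes a carrier of sphingosine 1-phosphate. Biliary cells line the ducts and are not a known source of these proteins in quantity.

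On chromosome 9 of mm10, Apoa1 (46228630 to 46230469), Apoc3 (46233050 to 46235636), Apoa4 (46240844 to 46243458) and Apoa5 (46268608 to 46271921) form the known cluster, and held 8 regions in all. Apob (chromosome 12, 7977629 to 8016839) held 12 regions, Apoh (chromosome 11, 108395297 to 108414396) held 3 and Apoa2 (chromosome 1, 171221564 to 171226379) held 1. Member regions were wide: the median was 1097 bp against 706 bp over all 93215 regions outside the mitochondrial genome, and 3 of the 24 spanned 5 kb or more, which is 12.5% against 1.31%. The widest spanned 39820 bp over the whole body of Apob and was the 5th widest in the matrix. The single regions of Apoa1 and Apoa2 spanned 10280 bp and 8689 bp, and each held its gene's start site. That of Apoa1 also reached into the body of Apoc3, so its reads cannot be given to Apoa1 alone.

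The bases just before the start sites were taken from RefSeq (GRCm38.p6), which matched 8 of the 9 genes. Motifs of liver transcription factors were searched on both strands of the 250 bases before each start, and a gene counted when any of its listed starts had a match. The relaxed HNF4A-type pattern TGNNCTTTG was found for Apob, Apoh and Apoa4, so 3 of 8 genes, against 6.29% of 27025 genes. The C/EBP-type pattern TTGCNNAA was found for Apob and Apoa2 (10.8% of genes), and the FOXA-type pattern TGTTTAC for Apoh and, at another start than the one shown, Apoa2 (3.54% of genes). The stricter HNF4A pattern CAAAGTCCA, which is contained in the relaxed one, the HNF1 pattern GTTAATNAT and the AP-1 pattern TGANTCA were found for 0 of 8 genes, against 0.451%, 0.866% and 7.82% of genes. TATAAA was found for 4 genes (14.3% of genes) and the TEAD-type CATTCC for 2 (14.4% of genes). The 4 promoters below are shown because they carry the liver-factor patterns and lie in regions of the matrix tied to their genes. Capitals mark matches to the relaxed HNF4A-type, C/EBP-type and FOXA-type patterns on either strand, none of which overlap each other. All are written 5′ to 3′ on the + strand and end at the base before the start.
Apob (chr12:7977427-7977676, +): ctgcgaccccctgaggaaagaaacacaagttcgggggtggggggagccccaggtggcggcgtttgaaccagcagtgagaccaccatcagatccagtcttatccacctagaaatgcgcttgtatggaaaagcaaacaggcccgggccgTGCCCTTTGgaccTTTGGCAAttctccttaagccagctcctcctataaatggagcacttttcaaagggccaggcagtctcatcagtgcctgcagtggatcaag
Apoh (chr11:108395047-108395296, +): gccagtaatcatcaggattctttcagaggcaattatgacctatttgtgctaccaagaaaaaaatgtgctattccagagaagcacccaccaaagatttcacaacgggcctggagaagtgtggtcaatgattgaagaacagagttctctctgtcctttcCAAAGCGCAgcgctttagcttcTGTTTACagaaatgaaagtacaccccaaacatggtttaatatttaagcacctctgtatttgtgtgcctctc
Apoa4 (chr9:46240594-46240843, +): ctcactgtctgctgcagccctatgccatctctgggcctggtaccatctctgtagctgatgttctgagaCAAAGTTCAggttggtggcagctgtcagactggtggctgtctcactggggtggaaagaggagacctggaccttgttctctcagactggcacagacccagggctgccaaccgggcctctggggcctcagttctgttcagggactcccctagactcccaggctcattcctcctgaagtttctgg
Apoa2 (chr1:171221314-171221563, +): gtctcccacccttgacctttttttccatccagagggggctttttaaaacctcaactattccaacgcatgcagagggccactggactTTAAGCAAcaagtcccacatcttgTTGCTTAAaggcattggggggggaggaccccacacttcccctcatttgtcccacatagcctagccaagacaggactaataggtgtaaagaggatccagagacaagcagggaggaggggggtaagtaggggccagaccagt
In Apob the relaxed HNF4A-type match lay 103 to 95 bases before the start and the C/EBP-type match 90 to 83. Apoh had the first of these patterns at 93 to 85 and the FOXA-type pattern at 71 to 65. The Apoa4 match lay farther away, at 182 to 174, and Apoa2 had 2 C/EBP-type matches, at 164 to 157 and 140 to 133. A match describes letters and does not show binding.

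Values are given as nuclear RPM, the count of reads in a region after scaling each library to 1000000 reads over its regions outside the mitochondrial genome, and a gene's value is the sum over its regions. Depth differed widely. Untreated hepatocyte libraries held 201705 to 605309 such reads and DDC hepatocytes 1191409 to 2342643, against 2439831 to 10395918 in the other 9 libraries. Mitochondrial reads took 63.1% to 84.2% of the untreated hepatocyte libraries, 29.1% to 42.4% of DDC hepatocytes and 4.69% to 21.9% of the rest. The labels matched the markers. The summed level of 7 hepatocyte genes was 3381 to 4474 nuclear RPM in untreated hepatocytes and 2204 to 3135 in DDC hepatocytes. In the other 9 libraries it was 317 to 964. Summed levels of 8 biliary genes ran from 279 to 486 in hepatocytes, 914 to 1084 in reprogrammed cells and 1152 to 1560 in biliary cells.

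**Figure D1:**
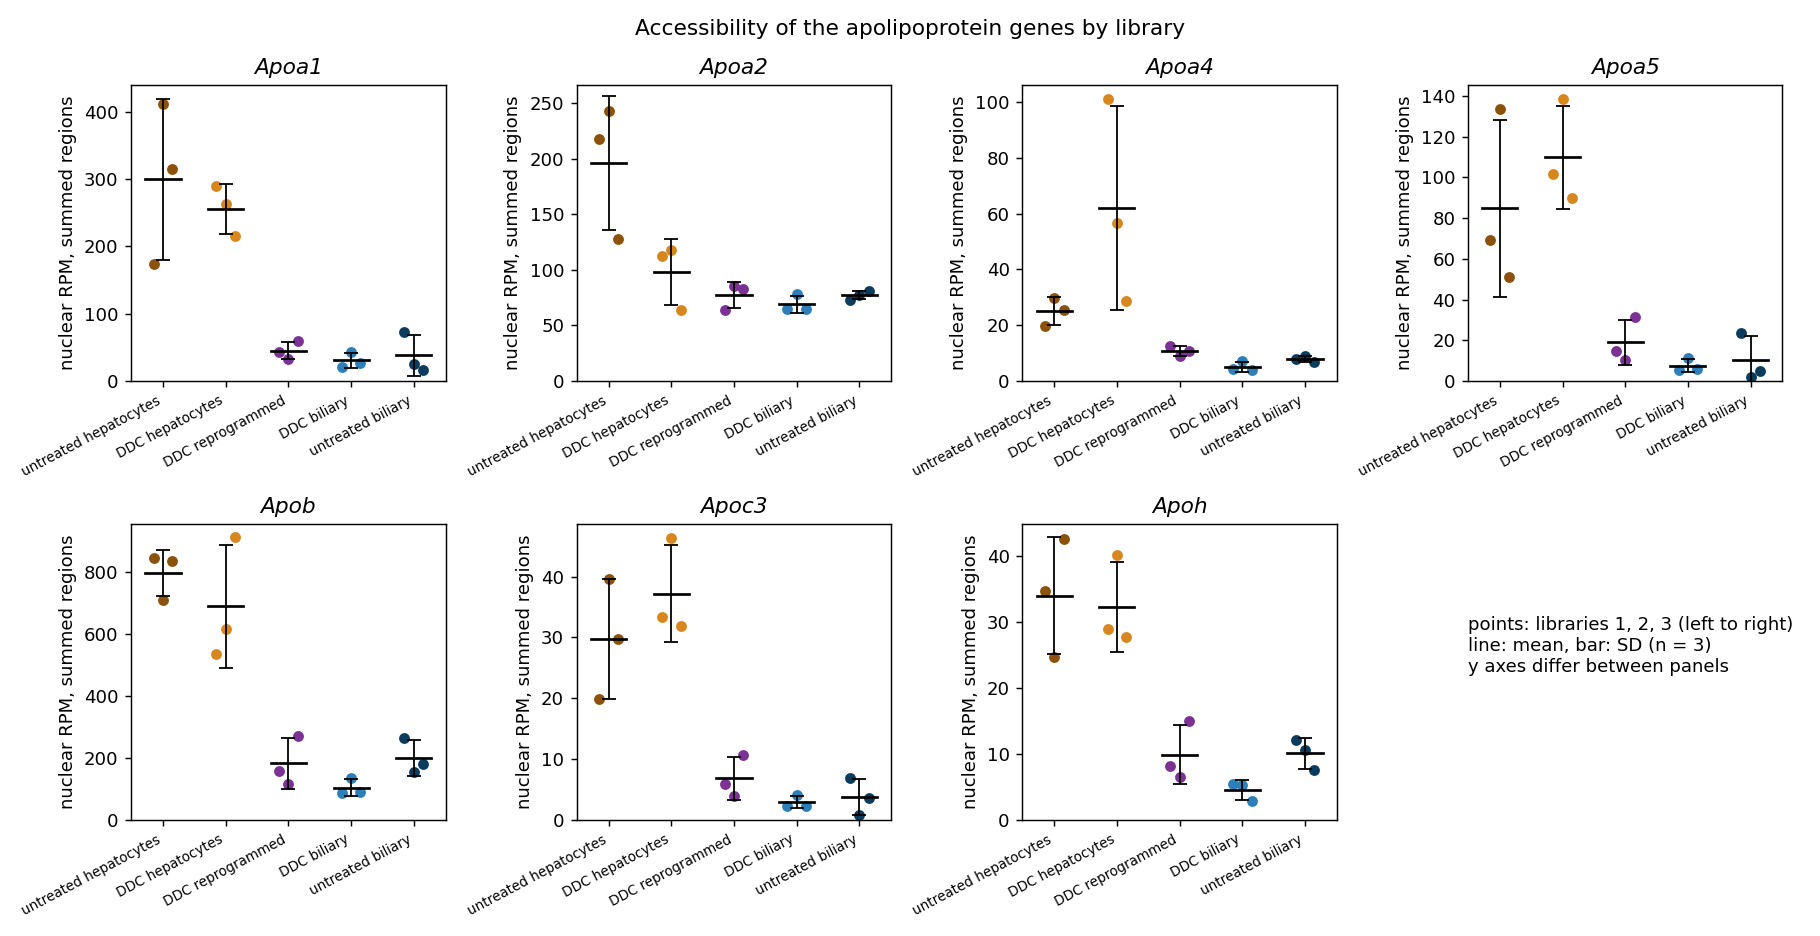
Nuclear RPM (y axis, from 0, separate scale per gene) of the 7 genes with regions, in the 3 libraries of each group, with mean and SD. All genes but Apoa2 are high in both hepatocyte groups and low in the other 3, and Apoa4 is highest in DDC hepatocytes with a wide spread.

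The scaffold gene Apob had the highest summed level. In untreated hepatocytes its 3 libraries stood at 843, 709 and 834 nuclear RPM, and in DDC hepatocytes at 535, 616 and 913. Reprogrammed cells had 158, 114 and 272, DDC biliary cells 85.7, 136 and 88.5, and untreated biliary cells 264, 153 and 178. No library outside the hepatocyte groups reached the lowest hepatocyte library. Per kb of region, Apob stood at 15.6 nuclear RPM in untreated hepatocytes and 13.5 in DDC hepatocytes, below Apoa1 at 29.2 and 24.9.

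Of the high-density genes, Apoa1 had 174, 411 and 315 nuclear RPM in untreated hepatocytes and 289.8, 263 and 216 in DDC hepatocytes. Its levels were 43.4, 33.3 and 58.9 in reprogrammed cells, 21.3, 43.1 and 27.5 in DDC biliary cells, and 72.5, 24.6 and 16.9 in untreated biliary cells. Those 3 groups overlapped each other and stayed clear of the hepatocytes. Apoa2 differed from the rest of the genes in shape. It had 218, 243 and 128 in untreated hepatocytes but 113, 118 and 63.8 in DDC hepatocytes, and 63.9 to 85.5 in all 9 other libraries. DDC hepatocyte library 3 was thus as low as the lowest of those 9.

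Among the genes of triglyceride-rich particles, Apoa5 had 69.4, 134 and 51.1 nuclear RPM in untreated hepatocytes and 102, 138 and 89.8 in DDC hepatocytes. Reprogrammed cells had 14.8, 10.5 and 31.5, DDC biliary cells 5.48, 11.5 and 5.77, and untreated biliary cells 23.8, 2.05 and 4.78, all below every hepatocyte library. Apoc3 followed the same order of groups at lower levels, with means of 29.8 ± 9.91, 37.2 ± 8.03, 6.83 ± 3.52, 2.91 ± 1.01 and 3.76 ± 2.99 (SD, n = 3). Apoa4 had 19.8, 29.7 and 25.5 in untreated hepatocytes and 101, 56.5 and 28.5 in DDC hepatocytes, so those groups overlapped. Its level was 12.4, 8.85 and 10.7 in reprogrammed cells and 4.0 to 9.0 in the 6 biliary libraries. Apoh, the beta-2-glycoprotein I gene, averaged 34.0 ± 8.92 and 32.3 ± 6.88 in the hepatocyte groups, 9.89 ± 4.45 in reprogrammed cells, 4.52 ± 1.47 in biliary cells with DDC and 10.1 ± 2.34 in those without. Untreated hepatocyte values of Apoa4, Apoc3 and Apoh rest on 28, 35 and 32 reads over 3 libraries.

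Apoe and Apom were followed through the regions beside them. A region of 17638 bp (chr7:19685162-19702799), assigned to Apoc1 by its midpoint, covers the start of Apoe too. It had 218, 256 and 187 nuclear RPM in untreated hepatocytes, 296, 290.2 and 254 in DDC hepatocytes, 144, 139.5 and 148 in reprogrammed cells, 91.0, 121 and 91.3 in biliary cells with DDC and 153, 121 and 118 in those without. Reads of Apoe and Apoc1 cannot be separated in it. Apom, on the minus strand, lay between 2 regions. That tied to Bag6 was 2808 bp before its start, and that tied to D17H6S53E was 1981 bp past its 3′ end. Neither passed the limma test in any of the 7 comparisons. No region was assigned to Apom, so it has no value of its own.

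The first comparison asked how biliary cells differ from hepatocytes without injury. All 7 genes were lower in untreated biliary cells, by 2.54-fold for Apoa2 to 8.30-fold for Apoa5 as ratios of mean nuclear RPM. The Apoa5 sum leaves out the region over its start site, which the rule ties to Zpr1. With regions counted for every gene body they touch, the log2 change of Apoa5 was -2.62, against -3.38 by the rule. Over all 16273 genes tested, 13.5% were called lower, and the members' median log2 change was -2.03 against 0.32 for all genes. Apob changed by -2.03 ± 0.29 on the log2(nuclear RPM + 1) scale (SE; limma adjusted p = 0.000104), Apoa1 by -3.13 ± 0.43 (adjusted p = 8.28e-05) and Apoa5 by -3.38 ± 0.62 (adjusted p = 0.000662). Apoa2 had the smallest change, -1.28 ± 0.25 (adjusted p = 0.000975). The Apoe and Apoc1 region fell by 0.75 on the same scale (adjusted p = 0.000947). Leaving out any 1 library gave 7 calls each time, and thinning each library to 201705 reads gave 5, without Apoa4 and Apoh (adjusted p = 0.193 and 0.153). After thinning 2490 of all 16112 genes were called, 1496 of them higher. Apoa4 (-1.53) was not called when only these groups were fitted (adjusted p = 0.0657), nor was Apoh (-1.65) from its regions inside the gene body alone (-1.16, adjusted p = 0.0969). On the deposited scale mitochondrial reads stay in the total, and the median of all genes moves to 1.91. There Apoa2, Apoa4 and Apoh turned to 0.60, 0.20 and 0.14, and 2 genes were called lower. Of all 16047 genes tested on that scale, 13927 were called, 13768 of them higher.

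In mice given DDC, all 7 estimates were again lower in biliary cells than in hepatocytes, and 6 of 7 genes were called (11.8% of all genes were called lower). Apoa5 was 14.5-fold lower in the DDC biliary cells, Apoc3 12.8-fold, Apoa4 12.1-fold, Apoa1 8.37-fold, Apoh 7.15-fold and Apob 6.65-fold. Their log2 changes ran from -2.61 for Apoh to -3.74 for Apoa5, and with thinned reads Apoc3 was not called (-2.10, adjusted p = 0.159). With regions counted for every gene body they touch, which adds the start-site region to Apoa5, its change was -2.92. The largest was then that of Apoa4, at -3.22. Apoa2 was not called, at -0.45 with a 95% interval of -0.98 to 0.07 (adjusted p = 0.215). Without DDC hepatocyte library 3 its change was -0.74 (adjusted p = 0.036), and edgeR called it lower with TMM factors (-0.57, adjusted p = 0.0238) and with nuclear totals (-0.53, adjusted p = 0.0307). The Apoe and Apoc1 region fell by 1.47 (adjusted p = 8.32e-05).

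**Figure D2:**
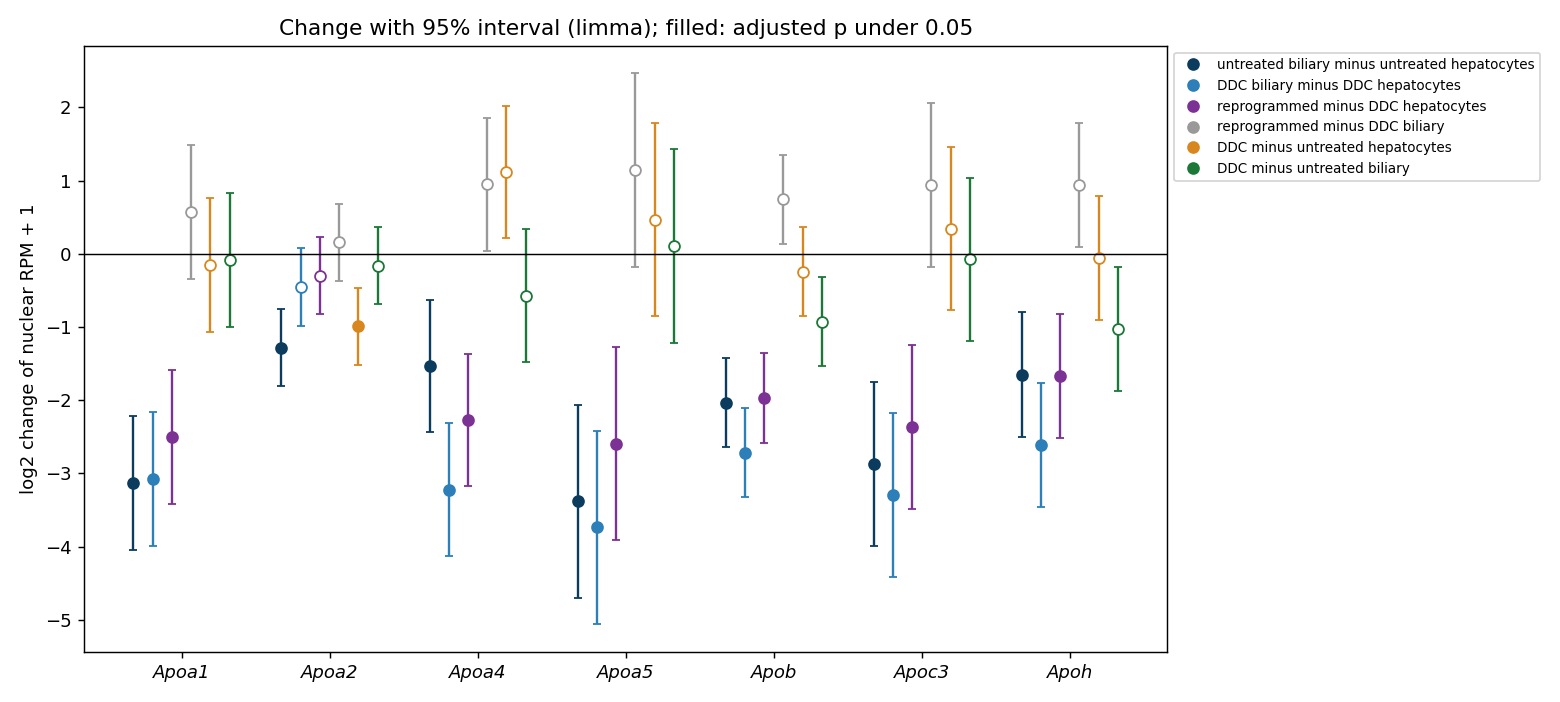
Log2 change of nuclear RPM + 1 (y axis) for 7 genes in 6 comparisons, with 95% intervals. Filled points have an adjusted p under 0.05: 7 genes are lower in untreated biliary cells than in untreated hepatocytes, 6 are lower in reprogrammed than in DDC hepatocytes, and 0 are called between reprogrammed and DDC biliary cells; on the deposited scale several changes against untreated hepatocytes reverse.

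The next comparison set reprogrammed cells against hepatocytes from mice that also had DDC. In reprogrammed cells 6 of 7 genes were called lower (6.43% of all genes were), and the members' median log2 change was -2.27 against 0.12 for all genes. Apoa4 was 5.83-fold lower, Apoa5 5.80-fold, Apoa1 5.67-fold, Apoc3 5.44-fold, Apob 3.79-fold and Apoh 3.27-fold. Apob changed by -1.97 ± 0.29 (SE; limma adjusted p = 0.000601), Apoa1 by -2.50 ± 0.43 (adjusted p = 0.00162), Apoa4 by -2.27 ± 0.43 (adjusted p = 0.00277) and Apoc3 by -2.36 ± 0.53 (adjusted p = 0.00778). Apoa2 was the exception, at -0.30 with an interval of -0.83 to 0.23 (adjusted p = 0.495). The Apoe and Apoc1 region fell by 0.95 (adjusted p = 0.00197). The calls of Apoa5 (-2.59, adjusted p = 0.0116) and Apoh (-1.67, adjusted p = 0.0115) were lost without DDC hepatocyte library 2 (adjusted p = 0.0563 and 0.0595), reprogrammed library 1 (0.0537 and 0.0581) or reprogrammed library 2 (0.0649 and 0.064). With reads thinned to 201705 per library 2 of 7 genes were called, without Apoa4 (adjusted p = 0.104), Apoa5 (0.12), Apoc3 (0.276) and Apoh (0.27). After thinning 610 of all 16112 genes were called, 339 of them higher.

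Against DDC biliary cells, all 7 estimates in reprogrammed cells were above 0, from 0.16 for Apoa2 to 1.14 for Apoa5, and 0 passed the limma test. With regions counted for every gene body they touch, Apoa5 stood at 0.41. In this comparison 0.0246% of all genes were called in either direction. At an unadjusted p under 0.05, where 2.92% of all genes were higher, there were 3 such genes: Apoa4 (0.95, 95% interval 0.04 to 1.86), Apob (0.74, 0.13 to 1.36) and Apoh (0.94, 0.10 to 1.79). The 3 reprogrammed libraries lay above the 3 DDC biliary libraries for Apoa4 and Apoh and overlapped them for the other genes. The share of all genes that separate in this way is not given, so this only describes the libraries. edgeR called 0 of the 7 with TMM factors (2.88% of all genes in either direction) and 1, Apob at 0.81, with nuclear totals (1.38% of all higher). A limma fit of only the compared groups called 2, Apoa4 and Apoa5 (2.96% of all higher). The Apoe and Apoc1 region had 0.52 (0.22 to 0.82, adjusted p = 0.392).

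The effect of DDC was tested in each cell type. In hepatocytes 1 of 7 genes was called, Apoa2, which fell by 0.99 ± 0.25 (SE; limma adjusted p = 0.0183), when 3.92% of all genes were called lower. Without DDC hepatocyte library 3 its change was -0.71 (adjusted p = 0.0561). With only the hepatocyte groups in the fit the same change had an adjusted p of 0.239, and on the deposited scale it was 0.59. With thinned reads it was -1.13 (adjusted p = 0.0732). In the test of single regions, edgeR with TMM factors put the only Apoa2 region at -0.42 (adjusted p = 0.35). The other 6 genes ranged from -0.24 for Apob to 1.12 for Apoa4 (0.21 to 2.02, adjusted p = 0.0885). Among fits that left out 1 library, Apoa4 was called higher without DDC hepatocyte library 3, at 1.58 (adjusted p = 0.0211; 9.65% of all genes were called higher in the fit of all libraries). On the deposited scale Apoa1, Apob and Apoh also changed sign, to 1.43, 1.35 and 1.42. The summed macrophage markers moved with DDC in hepatocytes as well, from 57.8 to 85.2 nuclear RPM without it to 92.4 to 164 with it, and their part in these values was not tested.

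In biliary cells 0 of 7 genes passed the limma test of the DDC effect (3.31% of all genes were called in either direction). Apoh had -1.02 (-1.87 to -0.17, adjusted p = 0.193) and Apob -0.93 (-1.54 to -0.32, adjusted p = 0.096), and these 2 genes were under 0.05 unadjusted, as were 7.99% of all genes in that direction. Both had non-overlapping libraries, lower with DDC, though the share of all genes that separate so is not given. Both were called by edgeR with TMM factors (5.25% of all genes lower) and nuclear totals (6.81%), by a fit of the biliary groups alone (13.2%), and without the untreated hepatocytes (6.9%), at -0.90 to -0.95 for Apob and -1.02 to -1.15 for Apoh. The difference between the DDC effects in biliary cells and hepatocytes was called for 0 of 7 genes (2.77% of all genes in either direction), with 2 under 0.05 unadjusted (19.5% of all genes), Apoa2 at 0.83 and Apoa4 at -1.69. By edgeR 0 of 7 were called with TMM factors (3.19% of all genes) or nuclear totals (3.57%). The Apoa4 difference was called without DDC hepatocyte library 3 (-2.15, adjusted p = 0.0471) and the Apoa2 difference without untreated hepatocyte library 3 (1.11, adjusted p = 0.038).

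The regions behind these sums did not all move together. Of the 24, 23 had a mean of at least 1 nuclear RPM and were tested. In untreated biliary cells against untreated hepatocytes 9 were called lower (10.9% of all 79075 tested) and 3 higher (22.1%), and in DDC biliary cells against DDC hepatocytes 13 were lower (12.1%) and 2 higher (16.4%). In reprogrammed cells against DDC hepatocytes 10 were lower (6.06%) and 2 higher (8.14%). All regions called higher in these comparisons were tied to Apob. Between reprogrammed and DDC biliary cells limma called 0 of 23 (0.0% of all regions in either direction), with 5 under 0.05 unadjusted (5.45% of all), and edgeR with TMM factors called 3 higher (1.04% of all). For the difference of the DDC effects limma called 0 (2.35% of all regions), with 3 under 0.05 unadjusted (18.3% of all), and edgeR with TMM factors called 2 lower (4.67% of all).

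The region over the Apob body (chr12:7976087-8015906) had 649.5, 557 and 647 nuclear RPM in untreated hepatocytes, 453, 517 and 793 in DDC hepatocytes, 107, 83.3 and 214 in reprogrammed cells, 44.3, 80.4 and 59.0 in biliary cells with DDC and 132, 54.5 and 63.1 in those without. It fell by 2.98 in untreated biliary cells (adjusted p = 2.55e-05) and by 2.19 in reprogrammed cells against DDC hepatocytes (adjusted p = 0.00222). The region that overlaps the 3′ end (chr12:8016598-8019623) changed further, by -4.58 and -2.87. It carried 94.2, 84.2 and 111 nuclear RPM in untreated hepatocytes and 0.82 to 14.4 in untreated biliary cells. The second change stood at -2.61, -2.78 and -2.34 without DDC hepatocyte library 3, reprogrammed library 1 or reprogrammed library 2, and was then no longer called (adjusted p = 0.0544, 0.0584 and 0.0697).

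Past the gene, in the 191.3 kb that separate Apob from the next protein-coding gene, Ldah, the order of groups differed between regions. DDC hepatocytes had the highest mean at chr12:8020766-8021442 (13.1 nuclear RPM) and at chr12:8047129-8047496 (6.24), but not at the regions between them. The region at chr12:8042311-8043564, centred 26098 bp past the body, had 44.6, 36.9 and 52.2 nuclear RPM in untreated biliary cells and 14.6, 13.4 and 6.7 in DDC biliary cells. Reprogrammed cells had 10.2, 4.7 and 5.5, untreated hepatocytes 9.9, 6.6 and 8.5, and DDC hepatocytes 0, 0 and 1.7. Untreated biliary cells were thus the highest group and DDC hepatocytes, with 2 reads in 3 libraries, the lowest. It was higher in untreated biliary cells than in untreated hepatocytes by 2.29 ± 0.48 (SE; adjusted p = 0.002), and in reprogrammed cells than in DDC hepatocytes by 2.42 ± 0.48 (adjusted p = 0.00608). From pooled reads the second ratio was 19.6, with a 95% counting interval of 5.33 to 163.

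With DDC this region fell in both cell types, by 2.73 in hepatocytes (adjusted p = 0.00206; 2 reads with DDC and 8 without, a pooled ratio of 21.6 with a counting interval of 4.31 to 209) and by 1.91 in biliary cells (adjusted p = 0.0402). Its neighbour at chr12:8037385-8038997 fell as well, by 2.16 in hepatocytes (adjusted p = 0.00992) and 1.99 in biliary cells (adjusted p = 0.0362). That neighbour had 27.6, 38.1 and 33.7 nuclear RPM in untreated biliary cells and 8.46, 13.6 and 3.52 with DDC, and 39.7, 18.2 and 34.1 against 5.12, 10.5 and 3.36 in hepatocytes. No library with DDC reached the lowest untreated library in either cell type. In biliary cells the limma fit of all libraries called these and no other member region (0.545% of all regions were called lower). Other fits also called the Apoh start-site region (edgeR with TMM, adjusted p = 0.0426; biliary groups alone, 0.0371; without untreated hepatocytes, 0.047) and the Apob region at chr12:8031693-8032759 (biliary groups alone, 0.0214; pseudocount of 5, 0.0454). With DDC, 3 of 23 were called lower in hepatocytes by limma (2.2% of all), the third being that of Apoa2. In biliary cells the call of the first region was lost on leaving out any 1 of the 6 libraries (adjusted p = 0.0807 to 0.232), and that of the neighbour on leaving out any but DDC biliary library 2 (0.0704 to 0.216). In hepatocytes neither was called when only the hepatocyte groups were fitted.

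Other Apob regions had few or no hepatocyte reads. At chr12:8031693-8032759 both hepatocyte groups had 0 reads, and untreated biliary cells had 15.5, 6.56 and 10.5 nuclear RPM. With a floor of 3 reads over each hepatocyte group, pooled untreated biliary cells were at least 3.78-fold higher than untreated hepatocytes and at least 20.4-fold higher than DDC hepatocytes. Reprogrammed cells had 1.31, 1.02 and 1.05, at least 2.13-fold above DDC hepatocytes, though limma did not call this region in that comparison (adjusted p = 0.0894). It was called there by edgeR with TMM factors (adjusted p = 0.0189) and with nuclear totals (0.0249), with a pseudocount of 0.5 (0.0372), on the deposited scale (0.0401) and without the untreated hepatocytes (0.0454). Upstream of the gene, chr12:7967123-7967731 was highest in reprogrammed cells, at 8.11, 4.68 and 5.04, against 2.56, 0.96 and 0 in DDC hepatocytes and 2.05 to 2.33 in DDC biliary cells. It was higher than in DDC hepatocytes by 1.83 ± 0.46 (SE; adjusted p = 0.0173), a call lost without DDC hepatocyte library 3 or reprogrammed library 1 (adjusted p = 0.0649 and 0.0871). The share of the Apob sum that came from the body region was 77.7% in untreated hepatocytes, 85.4% in DDC hepatocytes, 74.2% in reprogrammed cells, 59.2% in biliary cells with DDC and 42.0% in those without.

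**Figure D3:**
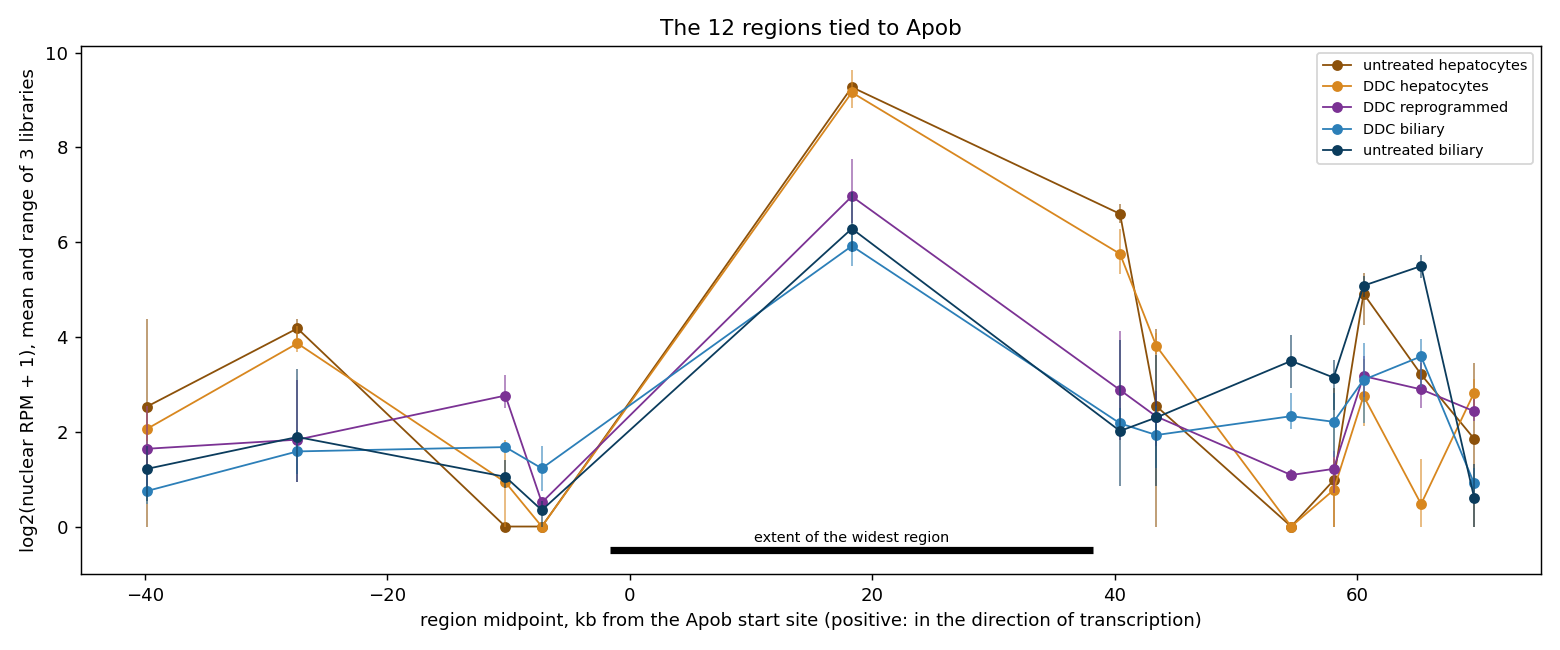
Mean log2(nuclear RPM + 1), with the range of 3 libraries, of the 12 regions tied to Apob against the distance of their midpoints from the start site in kb. Both hepatocyte groups lead over the gene body, and untreated biliary cells are above DDC hepatocytes at the regions 50 to 70 kb from the start site other than the last.

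In the chromosome 9 cluster 1 region went up with DDC. It spans the 3′ end of Apoa4 (chr9:46242232-46247050) and had 9.9, 0 and 0 nuclear RPM in untreated hepatocytes and 62.8, 23.9 and 8.4 in DDC hepatocytes, from 2 and 207 reads. Its change was 3.47 ± 0.80 (SE; limma adjusted p = 0.0105; 9.94% of all regions were called higher), and the pooled ratio was 19.2 with a 95% counting interval of 5.24 to 159. Library 3 of DDC hepatocytes lay below library 1 of untreated hepatocytes. The call was lost without DDC hepatocyte library 1 (2.79, adjusted p = 0.0638) and when only the hepatocyte groups were fitted. The region at the Apoa4 start site (chr9:46240456-46241407) did not share this shape, at 9.9, 13.2 and 17 in untreated and 20.5, 11 and 5.0 in DDC hepatocytes.

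For Apoa5 the largest region by level lay 11584 bp before the start (chr9:46256010-46258039). It fell by 3.53 in untreated biliary cells (adjusted p = 0.000541) and by 2.62 in reprogrammed cells against DDC hepatocytes (adjusted p = 0.0126), a call lost without DDC hepatocyte library 2 or reprogrammed library 1 or 2 (adjusted p = 0.0549, 0.0555 and 0.0668). The start site itself lies in a region of 10412 bp assigned to Zpr1, with 149 to 355 nuclear RPM in untreated hepatocytes, 292 to 378 in DDC hepatocytes and 28.5 to 80.1 in the other 9 libraries. It fell by 2.42 and 2.46 in the same comparisons (adjusted p = 0.000147 and 0.00166). For Apoh, the start-site region (chr11:108394841-108396350) fell by 1.84 in reprogrammed cells against DDC hepatocytes (adjusted p = 0.0309) and the region 9812 bp upstream by 2.04 (adjusted p = 0.03). Each of these Apoh calls was lost on leaving out at least 4 of the 6 libraries in turn.

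In every group but DDC hepatocytes, the library with the highest apolipoprotein sum also had the highest hepatocyte-marker sum. The summed level of the 7 genes was 460.2, 278 and 299 nuclear RPM in untreated biliary cells, where the 7 hepatocyte markers summed to 964, 488 and 444. Reprogrammed cells had 307, 263 and 482 beside marker sums of 549, 469 and 839, and DDC biliary cells 189, 285 and 196 beside 317, 617 and 400. Untreated hepatocytes had 1378, 1591 and 1426 beside marker sums of 3381, 4474 and 3670, and DDC hepatocytes 1202, 1279 and 1371 beside 2204, 3135 and 2772. Both sums were thus lower in every DDC hepatocyte library than in any untreated one. As a percentage of the marker sum, the apolipoprotein sum was 56.4 ± 0.842 in reprogrammed cells, 51.6 ± 7.10 in DDC biliary cells, 57.4 ± 9.77 in untreated biliary cells, 48.3 ± 6.95 in DDC hepatocytes and 38.4 ± 2.63 in untreated hepatocytes (SD, n = 3). The part of the markers' cells in the apolipoprotein levels was not tested. In bulk libraries fewer cells of a type and less open chromatin per cell cannot be told apart. Of the other cell types' markers, 3 macrophage genes with regions summed to 57.8 to 85.2 nuclear RPM in untreated hepatocytes, 92.4 to 164 in DDC hepatocytes, 97.8 to 124 in reprogrammed cells, 103 to 127.5 in DDC biliary cells and at most 105 in untreated biliary cells. The sum of 6 stellate genes was 85.2 to 182 and 148 to 174 in the hepatocyte groups, 200.5 to 222 in reprogrammed cells, 164 to 204 in DDC biliary cells and 179.5 to 202 in untreated biliary cells. For 6 endothelial genes it was 104 to 152, 164 to 186.5, 124 to 175, 109.5 to 135 and 73.1 to 99.4 in the same order of groups, and for 4 enterocyte genes 77.7 to 99.2, 78.1 to 114, 96.0 to 109, 134 to 142 and 59.9 to 86.1. The lymphocyte gene Il7r was at 0 in all 3 untreated hepatocyte libraries, 0.43 to 1.68 in DDC hepatocytes, 1.63 to 7.12 in reprogrammed cells, 5.24 to 6.64 in DDC biliary cells and 2.73 to 3.28 in untreated biliary cells. Of the enterocyte genes, Cdx1 was at 0 in the untreated hepatocytes too. Cdx2, Vil1 and Fabp2 averaged 24.4, 12.2 and 50.7 there, and Fabp2 had its highest mean in that group. The part of these cell types in the results was not tested.

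**Figure D4:**
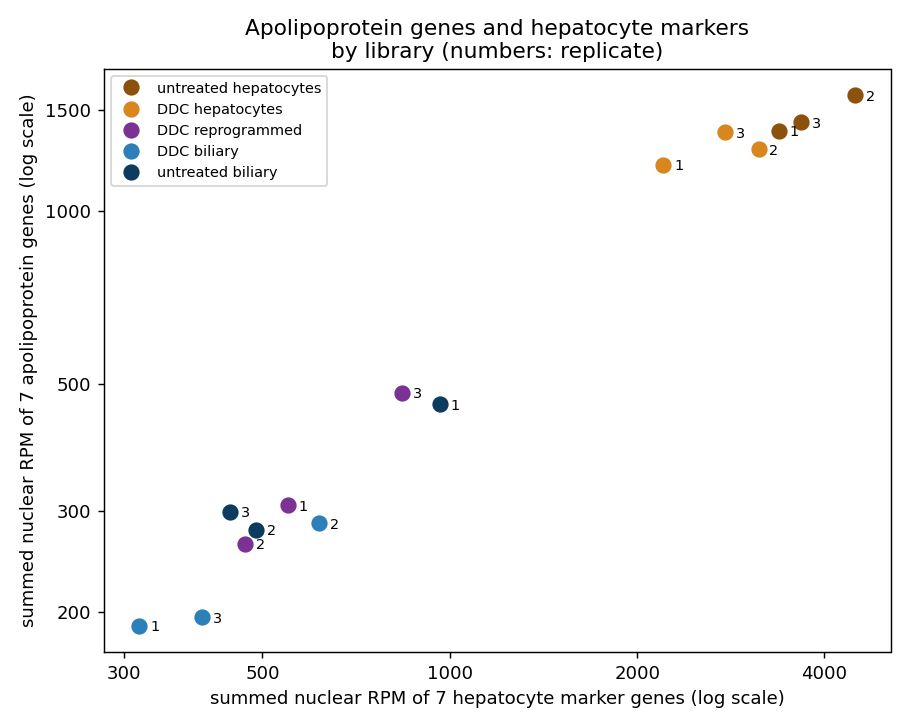
Summed nuclear RPM of the 7 apolipoprotein genes (y, log scale) against that of 7 hepatocyte marker genes (x, log scale), 1 point per library with its replicate number. The 6 hepatocyte libraries sit at 1202 to 1591 on the y axis and the other 9 at 189 to 482; in the reprogrammed and both biliary groups the library highest on one axis is highest on the other.

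The 7 genes varied together over the 15 libraries as log2 values, which is a description of samples that share groups and depth. Pearson's r was highest, at 0.983, for Apoa5 and Apoc3, which are in the same cluster with Apoa4 between them. It was 0.958 for Apob and Apoh on different chromosomes. Apoa2 had the lowest values, 0.548 to 0.689 with the other 6. The mean of the members' log2 values was set against 13293 genes with a mean of at least 10 nuclear RPM. Those most like it were Hal (r = 0.985), Fmo5 (0.984), Ttc39c (0.983), Pid1 (0.983) and Lrrn4 (0.983). Those most opposite were Bdkrb2 (-0.965), Epcam (-0.965), Parp8 (-0.963), Epb41l4a (-0.959) and Me3 (-0.958). Hal, which encodes the histidine-degrading enzyme histidase, had means of 149.6 nuclear RPM in the untreated hepatocytes and 19.7 in the DDC biliary cells. Epcam, which encodes a biliary surface protein and is on the biliary marker list, had 37.6 and 208.

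Other genes of lipoprotein metabolism were taken from lists of 63 genes, 60 of which were tested. In reprogrammed cells against DDC hepatocytes 25 were lower (6.43% of all genes) and 2 higher (7.8% of all genes), with a median of -0.60 against 0.12 for all genes. In untreated biliary cells against untreated hepatocytes 32 were lower (13.5% of all genes) and 4 higher (25.4% of all genes). The counts by list that follow are from the first of these comparisons, with the same shares of all genes. Of 10 assembly and secretion genes 4 fell in reprogrammed cells, among them Mttp, which loads lipid onto Apob (-2.03, adjusted p = 0.0274), and the triglyceride enzyme Dgat2 (-1.53). Of 9 other apolipoprotein genes 3 fell, Apoc4 (-1.83), Saa1 (-1.82) and Apoc1 through the region it shares with Apoe, and Apod rose (2.54, adjusted p = 0.045). Among receptors and uptake genes 5 of 11 fell, with Sdc1 at -0.80 and Lrp1 at -0.78, and Mylip, which marks the low-density lipoprotein receptor for degradation, rose (1.87). Lipases and plasma enzymes fell for 3 of 7, with Lcat at -1.79 and Lipg at -1.60, and efflux transporters for 3 of 6, with Abcg8 at -2.03 and Abca1 at -1.05. Of 17 regulators 7 fell, including Creb3l3 (-1.32) and Hnf4a (-1.18, adjusted p = 0.0259), which encodes the receptor whose pattern was searched above. Between reprogrammed and DDC biliary cells limma called 0 of the 60.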

How the data were processed

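Accessibility was measured by ATAC-seq in 15 mouse liver libraries. The authors deposited 1 matrix of regions by libraries on mm10. The submitters' processing notes name bedtools, MACS2, SAMtools and Bowtie2. Versions, settings, duplicate handling and any shift for the transposase offset are not stated there. The deposited values, labelled TPM, are RPM: each is a whole number of reads per 1000000 reads in all regions, 2 mitochondrial ones included. Whole reads were recovered for 100% of the values checked in every library (tolerance 0.02 read, values up to 100 reads).

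Columns were rescaled to 1000000 without the 2 mitochondrial regions (nuclear RPM). Regions were tied to 21900 protein-coding genes of RefSeq (GRCm38.p6) within 50 kb, which placed 80398 of 93215. Gene sums and single regions were tested with limma 3.58.1 (R 4.3.3) on log2(nuclear RPM + 1), all 15 libraries in 5 group means, features with a mean of at least 1, and Benjamini-Hochberg adjustment over 16273 genes or 79075 regions (threshold 0.05). Alternatives included edgeR 4.0.16 on recovered reads, other pseudocounts (0.5 and 5), no filter, and reads thinned to 201705 per library. Intervals of pooled ratios, and floors, cover counting error only. Intervals of log2 changes come from the limma fit and rest on the spread between libraries.

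The members and gene lists were chosen with earlier results of these data known. Named were the 9 members and their regions with the highest mean, a start site or the largest called change. Also named were the 5 genes most and least like the members' mean log2 value, and up to 3 called genes per list with the largest change. The DDC change of the neighbour of the Apob region that fell most with DDC in hepatocytes, the Apoa4 start-site values and the Apob region without hepatocyte reads were picked after their values were seen. The summed level of the lymphocyte markers is not reported here.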

Additional observations from a re-analysis of the deposited data

How the results depend on the processing

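In comparisons with untreated hepatocytes the deposited scale changed many values. On RPM as deposited the median log2 change of all genes was 1.91 for untreated biliary cells and 1.54 for DDC hepatocytes against untreated hepatocytes, and 98.9% and 99.9% of called genes were higher, against 65.2% and 71.1% in nuclear RPM; by edgeR with TMM the shares were 48.6% and 56.0%. On that scale 2 member genes were lower in untreated biliary cells, 0 lower and 6 higher in DDC hepatocytes, and 4 lower in the difference of the DDC effects. Of all 16047 genes tested on it, 13927 were called in the first of these (13768 higher) and 13593 in the second (13579 higher). In the difference 10168 were called, 154 of them higher. Sign changes were Apoa2 0.60, Apoa4 0.20 and Apoh 0.14 in untreated biliary cells, and Apoa1 1.43, Apoa2 0.59, Apob 1.35 and Apoh 1.42 in DDC hepatocytes, the Apoa2 region (0.60 and 0.59), the Apob body region (1.48) and the Apoa1 region (1.43) included. Of member regions, 4 were then lower and 6 higher in untreated biliary cells, 1 lower and 11 higher in DDC hepatocytes, and 4 lower in the difference. Shares of all regions on this scale are not given, so these region counts have no background beside them.

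With only the compared groups fitted, 0 member genes and 0 regions were called in either direction in DDC against untreated hepatocytes. The same fit called 2 genes and 4 regions lower in DDC against untreated biliary cells, and 2 genes and 3 regions higher and 1 region lower in reprogrammed against DDC biliary cells. All genes called went from 2208 to 1 in the first, from 538 to 4474 in the second and from 4 to 1168 in the third. edgeR with TMM called 2 genes lower in DDC against untreated biliary cells, 1 region lower in DDC against untreated hepatocytes, 3 regions higher in reprogrammed against DDC biliary cells, and 2 regions lower in the difference. edgeR with nuclear totals called 2 genes lower in DDC against untreated biliary cells, 1 gene and 2 regions higher in reprogrammed against DDC biliary cells, and 1 region lower in the difference. Leaving out the untreated hepatocytes, an alternative chosen after seeing the data, gave 2 genes lower in DDC against untreated biliary cells. With a pseudocount of 0.5, 0 regions were lower in DDC against untreated biliary cells. Where no share of all regions was given above, these region counts have no background beside them.

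With all libraries thinned to 201705 reads, all genes called fell from 2316 to 610 in reprogrammed against DDC hepatocytes. They fell from 3983 to 1677 in DDC biliary cells against DDC hepatocytes. Against untreated hepatocytes they fell from 6342 to 2490 in untreated biliary cells and from 2208 to 186 in DDC hepatocytes. Shares of all regions are not given for this fit. Thinning leaves fewer reads to test. It left 2 genes and 2 regions lower and 0 regions higher in reprogrammed against DDC hepatocytes, 5 genes (Apoc3 lost) and 7 regions lower and 0 regions higher in DDC biliary cells against DDC hepatocytes, 5 genes lower (Apoa4 and Apoh lost) and 0 regions higher in untreated biliary cells against untreated hepatocytes, 0 genes and 0 regions in either direction in DDC against untreated hepatocytes, and 0 regions in DDC against untreated biliary cells. Same-numbered replicates were not treated as paired: 8 of 30 pairs correlated over 0.1 (range -0.139 to 0.197). Most of these 8 were pairs among the DDC groups, which ran from 0.028 to 0.197. Whether those groups share animals or batches was not tested. With the replicate number as a block, 1 region was lower in DDC against untreated biliary cells and 1 in the difference. Shares of all regions are not given for the block fit either.

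Leaving out 1 library at a time, genes lower in reprogrammed against DDC hepatocytes numbered 4 to 6, regions lower 2 to 9 and regions higher 1 to 2. All genes called in that comparison ran from 1028 to 1833 in these fits, against 2316 with all libraries. DDC against untreated hepatocytes gave 0 to 1 genes lower, 0 to 1 higher, 2 to 4 regions lower and 0 to 4 higher, while all genes called ran from 823 to 4538. DDC against untreated biliary cells gave 0 to 1 regions lower. The difference gave 0 to 1 genes in each direction, 0 to 2 regions lower and 0 to 1 higher. Untreated biliary cells against untreated hepatocytes kept 7 genes lower, with 8 to 12 regions lower and 2 to 3 higher; DDC biliary cells against DDC hepatocytes had 6 to 7 genes and 10 to 13 regions lower and 2 regions higher. Shares of all regions are not given for these fits, so the region ranges have no background beside them. The depth of the untreated hepatocytes, with a member region often on under 20 reads over 3 libraries, limits every comparison that uses them.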
